A study of Mus musculus with 10 samples.

Results

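The 10 genes examined here handle iron in the cell: Tfrc, Tfr2, Steap3, Slc11a2 and Slc25a37 bring it in, Fth1 and Ftl1 store it, Slc40a1 exports it, and Aco1 and Ireb2 sense it. They were chosen by name from the 55359 genes of the deposited expression table, and all 10 were found and were high enough to be tested. The RNA came from Lin- bone marrow cells, the fraction left once cells bearing markers of mature blood lineages have been depleted. Both groups carried floxed Dhx9 alleles, with 5 libraries labelled Dhx9f/f (WT) and 5 labelled Dhx9f/f;MX1 (cKO). The latter also carry Cre under the promoter of Mx1, an interferon-induced gene, so that injected poly(I:C), a double-stranded RNA analog and interferon inducer, switches Cre on. Mx1-Cre also acts outside blood cells, for example in the liver. Whether the sequenced WT mice received poly(I:C), and how old the mice were, is not given in the sources used here, so an effect of poly(I:C) and one of genotype cannot be told apart. The comparison asks how the RNA of each iron gene differed between the libraries labelled cKO and WT.

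Developing red cells take up most of their iron on transferrin, which binds transferrin receptor 1 (the Tfrc product) and enters endosomes with it. A STEAP reductase there reduces the iron, the divalent metal transporter passes it to the cytosol, and mitoferrin passes it into mitochondria, where heme and iron-sulfur clusters are made. Spare iron is held in ferritin, a shell of heavy and light chains, or leaves through ferroportin. When iron is scarce, the iron regulatory proteins IRP1 and IRP2, encoded by Aco1 and Ireb2, bind short mRNA hairpins called iron-responsive elements. Bound near the 5′ end of ferritin or ferroportin mRNA they block translation, and bound in the 3′ end of Tfrc mRNA they slow its decay. RNA levels are therefore not a readout of ferritin or ferroportin protein.

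The hairpins are shown because they are the sites that the iron regulatory proteins read. The search asked for a C, then 5 letters, the 6-letter loop CAGTGN, and 5 letters that pair with the first 5 (G with T allowed), on the transcribed strand of annotated UTRs (GENCODE annotation of GRCm39). Of the 10 members, 4 held such a match: Fth1, Ftl1 and Slc40a1 in the 5′ UTR and Tfrc at 4 places in the 3′ UTR. In the sites below, capitals mark the bulged C and the loop.
Fth1, chr19:9960097-9960123, plus strand: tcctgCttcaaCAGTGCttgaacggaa
Ftl1, chr7:45109204-45109230, minus strand: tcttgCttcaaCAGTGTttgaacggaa
Slc40a1, chr1:45964626-45964652, minus strand: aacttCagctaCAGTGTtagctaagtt
Tfrc, chr16:32450038-32450064, plus strand: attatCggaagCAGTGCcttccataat
Tfrc, chr16:32450417-32450443, plus strand: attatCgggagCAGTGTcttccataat
Tfrc, chr16:32450482-32450508, plus strand: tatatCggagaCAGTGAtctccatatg
Tfrc, chr16:32450529-32450555, plus strand: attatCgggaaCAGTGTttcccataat
A match to these letters was in a UTR of 210 of 21594 protein-coding genes (0.972%). At least 4 of the 5 letters before the C also paired with the far end in 22 genes (0.102%), and all 7 member sites were of that kind. A match describes the letters and does not show binding. Slc11a2, Tfr2, Steap3, Slc25a37, Aco1 and Ireb2 held no match to these letters in their annotated UTRs. The search finds only hairpins with this loop and 5 unbroken pairs. The lack of a match therefore does not show that a gene has no iron-responsive element, and further elements of Tfrc could be missed too.

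Values are FPKM, that is fragment counts divided by gene length and by library size. Read from the steps between low values, depth was 15044937 to 18709689 fragments in WT and 13835552 to 17188517 in the libraries labelled cKO, and each member rested on about 1363 (Slc40a1) to 36619 (Fth1) fragments per library. The targeted gene went against the labels, since Dhx9 was at 65.43 to 72.42 FPKM in WT and at 130.82 to 156.49 FPKM in the libraries labelled cKO. All directions given here are between libraries as labelled. Xist, expressed from the inactive X chromosome of females, was at 99.19 to 127.76 FPKM in WT 3, WT 4 and WT 5 and at 0.09 or less in WT 1, WT 2 and all 5 libraries labelled cKO, so sex-linked expression differed between the groups. Markers of stem and progenitor cells were present in WT, with Kit at 45.9 ± 7.83 and Cd34 at 25.6 ± 3.44 FPKM, and lower in the libraries labelled cKO, with Kit at 25.5 ± 5.57 and Cd34 at 3.10 ± 2.33 (SD, n = 5 per group). Of 9 such markers, 7 were lower at an adjusted p under 0.05 and 0 higher, among them Meis1 (3.13 ± 0.424 against 0.774 ± 0.317 FPKM) and Hlf (3.11 ± 0.319 against 0.428 ± 0.298). Of 8 markers of mature lineages, 7 were tested, 0 were higher and 2 lower (Itgam of myeloid cells, at 3.19 ± 0.589 against 0.766 ± 0.726 FPKM, and Klrb1c of natural killer cells, at 0.958 ± 0.217 against 0.128 ± 0.183). By the same rule 28.3% of all genes tested were lower and 16.7% higher, so 2 lower of 7 is close to the share of all genes. These shares also stand beside the other marker counts given here.

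Of the 5 uptake genes, 4 were higher in the libraries labelled cKO, and so was the heavy ferritin chain. With limma on log2(FPKM + 0.1) and Benjamini-Hochberg adjustment over 18742 genes, 5 of the 10 members (Tfrc, Tfr2, Slc11a2, Slc25a37 and Fth1) were higher at an adjusted p under 0.05, and 0 were lower. Over all genes tested, 16.7% were higher and 28.3% lower by that rule. With a change of at least 2-fold as well, the call rule of the study, 1 member (Fth1) was higher and 0 were lower, against 4.60% and 16.8% of all genes. The 5 members were also those in which all 5 libraries labelled cKO lay above all 5 WT libraries, as was so for 10.6% of all genes. No member had all its libraries labelled cKO below WT, which was so for 21.6% of all genes. The median log2 fold change was 0.48 over the 10 members and -0.11 over all genes. In bulk RNA, a change in how many cells of a type are present and a change in RNA per cell cannot be told apart.

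**Figure D1:**
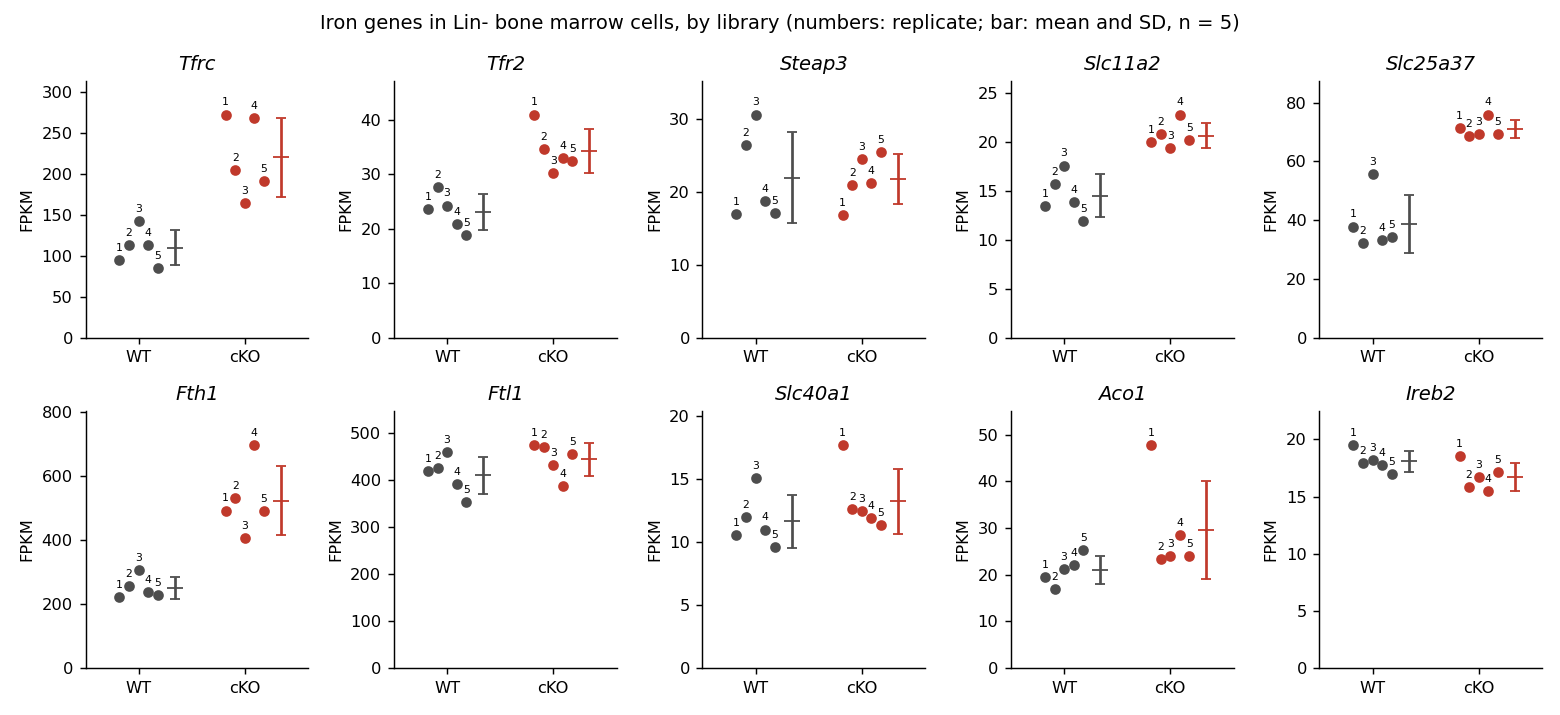
FPKM of each of the 10 iron genes in 5 WT and 5 cKO-labelled libraries, with 1 numbered point per library and a bar for the mean and SD (n = 5). The groups are apart for Tfrc, Tfr2, Slc11a2, Slc25a37 and Fth1 and overlap for Steap3, Ftl1, Slc40a1, Aco1 and Ireb2.

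Tfrc (ENSMUSG00000022797, chr16:32427556-32451612, plus strand) is the main transferrin receptor of the red cell precursor. It was at 95.27, 112.9, 142.35, 113.74 and 85.58 FPKM in WT 1 to 5 and at 272.53, 204.46, 164.65, 268.23 and 191.03 FPKM in cKO 1 to 5. The groups did not overlap, although cKO 3, the lowest of its group, stood close above WT 3, the highest of the other. The means were 110.0 ± 21.7 and 220.2 ± 48.0 FPKM, and the log2 fold change was 1.0 (SE 0.168, limma adjusted p = 7.84e-04), which lay just short of the 2-fold line. Across the alternatives run, including each library left out, it ranged from 0.89 to 1.09 and stayed past the adjusted p threshold. The 4 hairpins shown above lie in its 3′ UTR.

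Tfr2 (ENSMUSG00000029716, chr5:137568087-137586343, plus strand) encodes the second transferrin receptor, which in red cell precursors associates with the erythropoietin receptor. Its level was 23.54, 27.68, 24.24, 20.82 and 18.89 FPKM in WT 1 to 5 and 40.93, 34.64, 30.28, 33.01 and 32.47 FPKM in cKO 1 to 5. All libraries labelled cKO lay above all WT libraries, by a small margin between cKO 3 and WT 2. Means of 23.0 ± 3.37 and 34.3 ± 4.04 FPKM gave a log2 fold change of 0.58 (SE 0.111, limma adjusted p = 0.00174). Against WT 1 and WT 2 alone, the WT libraries that matched the other group in low Xist, the log2 fold change of Tfr2 was 0.42 and the limma adjusted p 0.0522, so the call did not hold there.

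Slc11a2 (ENSMUSG00000023030, chr15:100285776-100322953, minus strand), the divalent metal transporter, was at 13.5, 15.68, 17.62, 13.89 and 11.97 FPKM in WT 1 to 5. In cKO 1 to 5 it was at 20.06, 20.87, 19.43, 22.84 and 20.22 FPKM. The second group was tight and wholly above the first, with means of 20.7 ± 1.31 against 14.5 ± 2.17 FPKM. The log2 fold change was 0.52 (SE 0.101, limma adjusted p = 0.00181).

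Slc25a37 (ENSMUSG00000034248, chr14:69479297-69522561, minus strand) encodes mitoferrin-1, the mitochondrial iron importer of red cell precursors. WT 1 to 5 held 37.84, 32.33, 55.82, 33.37 and 34.18 FPKM, and cKO 1 to 5 held 71.46, 68.52, 69.25, 75.95 and 69.18 FPKM. WT 3 stood well above the other WT libraries but below every library labelled cKO. Means of 38.7 ± 9.79 and 70.9 ± 3.05 FPKM gave a log2 fold change of 0.90 (SE 0.133, limma adjusted p = 3.78e-04), and 1.04 without WT 3, where the gene passed the 2-fold line (limma adjusted p = 1.98e-05).

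Steap3 (ENSMUSG00000026389, chr1:120118487-120200435, minus strand), the endosomal ferrireductase, was the uptake gene whose groups overlapped. Its levels were 16.93, 26.38, 30.62, 18.74 and 17.17 FPKM in WT 1 to 5 and 16.8, 20.93, 24.49, 21.26 and 25.45 FPKM in cKO 1 to 5. The lowest library of all was cKO 1 and the highest WT 3, so both extremes were set by single libraries. Means were 22.0 ± 6.19 and 21.8 ± 3.41 FPKM, and the log2 fold change of 0.02 (SE 0.181, limma adjusted p = 0.951) has no settled direction, since it turned to -0.02 with equal sums per library.

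The ferritin chains parted. Fth1 (ENSMUSG00000024661, chr19:9957911-9962462, plus strand), the heavy chain that oxidises iron for storage, was at 220.73, 255.4, 305.59, 236.65 and 228.95 FPKM in WT 1 to 5 and at 491.23, 530.55, 404.49, 696.6 and 488.78 FPKM in cKO 1 to 5. The lowest library labelled cKO, cKO 3, lay clear of the highest WT library, WT 3. Means of 249 ± 33.9 and 522 ± 108 FPKM gave a log2 fold change of 1.05 (SE 0.138, limma adjusted p = 2.10e-04). Without cKO 4 it was 0.94 (limma adjusted p = 2.68e-04), under the 2-fold line, so that 1 library carried the call at 2-fold but not the one at adjusted p alone.

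Ftl1 (ENSMUSG00000050708, chr7:45107367-45109308, minus strand), the light chain that helps the iron core to form, was at 418.99, 425.36, 459.92, 392.15 and 352.18 FPKM in WT 1 to 5. In cKO 1 to 5 it was at 475.11, 469.93, 432.29, 388.2 and 455.74 FPKM. The groups overlapped broadly, and cKO 4, the highest library for Fth1, was the lowest of its group for Ftl1. Means of 409.7 ± 40.2 and 444 ± 35.5 FPKM gave a log2 fold change of 0.12 (SE 0.0851, limma adjusted p = 0.285). Processed copies of both chains exist in the genome, and how reads shared with them were counted is not given in the sources used here, so the ferritin values are uncertain to that extent. Of these copies, Ftl1-ps1 was at 15.38 to 21.21 FPKM, Fth-ps2 at 2.66 FPKM or less, and Ftl2-ps and Fth1-ps at 0.35 FPKM or less.

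Slc40a1 (ENSMUSG00000025993, chr1:45947211-45965683, minus strand) encodes ferroportin, the iron exporter. It was at 10.59, 11.99, 15.11, 11.0 and 9.61 FPKM in WT 1 to 5 and at 17.74, 12.63, 12.5, 11.94 and 11.36 FPKM in cKO 1 to 5. Leaving aside cKO 1, every library labelled cKO lay within the WT range. Means of 11.7 ± 2.11 and 13.2 ± 2.57 FPKM gave a log2 fold change of 0.18 (SE 0.145, limma adjusted p = 0.346), which was 0.07 without cKO 1 (limma adjusted p = 0.656).

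Of the sensors, Aco1 (ENSMUSG00000028405, chr4:40142998-40199010, plus strand) encodes IRP1, a cytosolic aconitase when it carries an iron-sulfur cluster and an RNA-binding protein when it does not. It was at 19.49, 16.95, 21.16, 22.1 and 25.2 FPKM in WT 1 to 5 and at 47.86, 23.43, 23.93, 28.59 and 24.02 FPKM in cKO 1 to 5. The library cKO 1 was far above all others, and WT 5 lay within the range of the libraries labelled cKO. Means of 21.0 ± 3.06 and 29.6 ± 10.4 FPKM gave a log2 fold change of 0.45 (SE 0.192, limma adjusted p = 0.0800). Without cKO 1 it was 0.26 (limma adjusted p = 0.0804), so the size of the difference, though not its side of the threshold, rested on that library.

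Ireb2 (ENSMUSG00000032293, chr9:54770970-54820011, plus strand) encodes IRP2, which is degraded when iron is plentiful. Its level was 19.54, 17.91, 18.19, 17.77 and 16.98 FPKM in WT 1 to 5 and 18.55, 15.81, 16.7, 15.45 and 17.15 FPKM in cKO 1 to 5. Levels varied little between libraries and the groups overlapped. Among the 10 members it alone had a negative log2 fold change, at -0.11 (SE 0.0681, limma adjusted p = 0.204), from means of 18.1 ± 0.933 and 16.7 ± 1.22 FPKM.

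**Figure D2:**
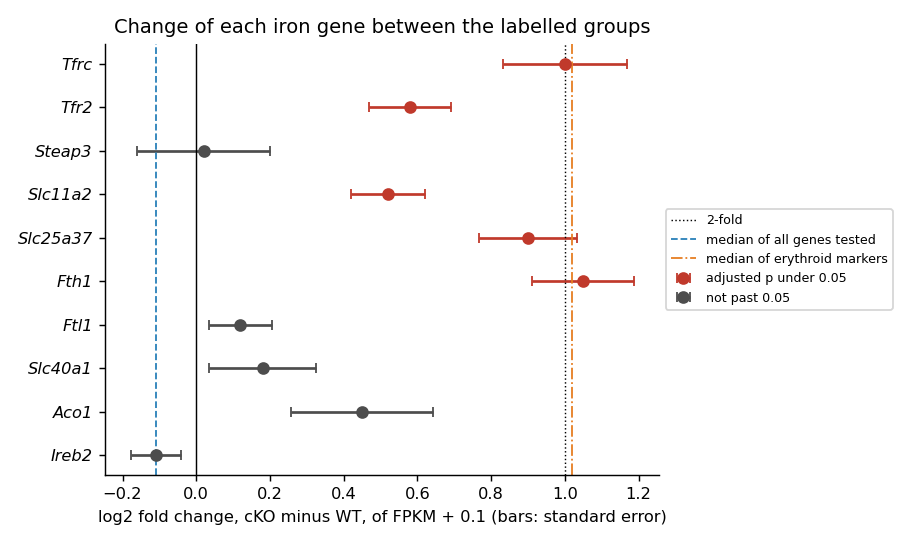
Log2 fold change of FPKM + 0.1, cKO-labelled minus WT, for each iron gene with its standard error (n = 5 per group), in red at an adjusted p under 0.05. Tfrc, Slc25a37 and Fth1 lie near the 2-fold line at 1.0, 0.90 and 1.05, Tfr2 and Slc11a2 near 0.58 and 0.52, and vertical lines mark the medians of all genes (-0.11) and of the erythroid markers (1.02).

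FPKM is per length, so levels can be ordered across genes. That order depends on the gene lengths behind the FPKM, which are not given in the sources used here. In WT the mean FPKM ran Ftl1, Fth1, Tfrc, Slc25a37, Tfr2, Steap3, Aco1, Ireb2, Slc11a2 and Slc40a1 from high to low. Ranges over the 5 libraries were separate between neighbours down to Slc25a37 and Tfr2, and overlapped between all neighbours from Tfr2 downward. In the libraries labelled cKO, the FPKM of Fth1 came level with that of Ftl1, with overlapping ranges. The next in order were Tfrc, Slc25a37 and Tfr2, each separate from the one above. Below these, Tfr2, Aco1, Steap3 and Slc11a2 overlapped neighbour by neighbour, Ireb2 lay apart below Slc11a2, and Ireb2 and Slc40a1 overlapped. Single libraries tended to run high or low over several members. WT 3 was the highest WT library for 7 of the 10 members and WT 5 the lowest for 6, while cKO 1 was the highest of its group for 6 and cKO 3 the lowest for 4.

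Ratios within a library compare paired parts of the pathway free of the scale of that library. The ratio of Fth1 to Ftl1 FPKM was 0.527, 0.60, 0.664, 0.603 and 0.650 in WT 1 to 5 and 1.03, 1.13, 0.936, 1.79 and 1.07 in cKO 1 to 5. Heavy chain FPKM was thus below light chain FPKM in each WT library and above it in 4 of the 5 libraries labelled cKO. The ratios of the groups did not overlap. Annotated exons span 3520 bases for Fth1 and 1341 for Ftl1, and the lengths behind the FPKM are not given in the sources used here. Which chain is higher within a library depends on those lengths, so only the shift of the ratio between groups is read. The mean rose from 0.609 ± 0.0539 to 1.19 ± 0.343, a log2 difference of 0.93 (SE 0.174), with p = 0.00794 by a two-sided exact permutation test, the smallest that 5 against 5 libraries allow, and 0.0317 after adjustment over the 4 ratios tested.

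The ratio of Tfrc to Tfr2 was 4.05, 4.08, 5.87, 5.46 and 4.53 in WT 1 to 5 and 6.66, 5.90, 5.44, 8.13 and 5.88 in cKO 1 to 5. WT 3 and WT 4 reached the range of the other group, while WT 1, WT 2 and WT 5 lay below it. Means were 4.80 ± 0.829 and 6.40 ± 1.06, with a log2 difference of 0.42 (SE 0.149, exact permutation p = 0.0317, adjusted 0.0423). For Aco1 over Ireb2 the values were 0.997, 0.946, 1.16, 1.24 and 1.48 in WT 1 to 5 and 2.58, 1.48, 1.43, 1.85 and 1.40 in cKO 1 to 5. Again only part of the WT group, here WT 5, reached the range of the other group. The means were 1.17 ± 0.214 and 1.75 ± 0.498, with a log2 difference of 0.56 (SE 0.203, exact permutation p = 0.0317, adjusted 0.0423), and 0.41 without cKO 1 (exact permutation, adjusted p = 0.0794). Fewer permutations are possible with a library left out, so the larger p-value does not show that the call rested on cKO 1. With a difference of medians in place of means, none of these 3 ratios passed, at adjusted exact permutation p-values of 0.0952, 0.0952 and 0.159. Many permutations share the same medians, so the smallest p-value possible is larger than for means. After adjustment over the 4 ratios it leaves little room to pass, even for groups that do not overlap. These p-values therefore do not show that the calls rested on the use of means.

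The ratio of Tfrc to Fth1 sets the receptor against the store. Iron regulatory proteins slow the decay of Tfrc mRNA but block the translation of Fth1 mRNA. A ratio of RNA levels therefore does not read their effect on ferritin. The ratio was 0.432, 0.442, 0.466, 0.481 and 0.374 in WT 1 to 5 and 0.555, 0.385, 0.407, 0.385 and 0.391 in cKO 1 to 5. Apart from cKO 1, the libraries labelled cKO lay inside the WT range. Means were 0.439 ± 0.0411 and 0.425 ± 0.0733, with a log2 difference of -0.06 (SE 0.119, exact permutation p = 0.659, adjusted 0.659).

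**Figure D3:**
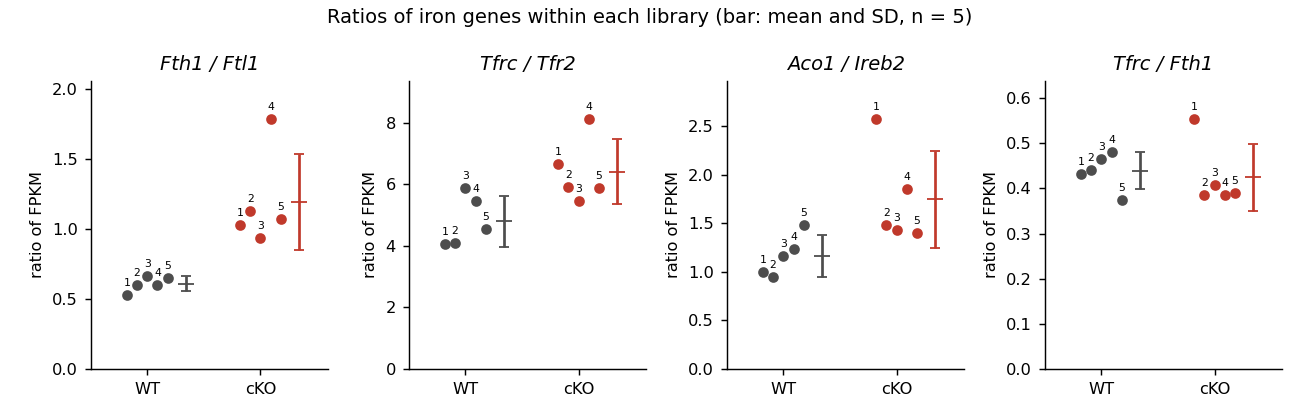
Ratio of FPKM of paired iron genes within each library, with 1 numbered point per library and a bar for the mean and SD (n = 5 per group). Fth1/Ftl1 is 0.527 to 0.664 in WT and 0.936 to 1.79 in the cKO-labelled libraries, whereas Tfrc/Fth1 overlaps at 0.374 to 0.481 and 0.385 to 0.555.

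Most erythroid markers were higher in the libraries labelled cKO, as were Fth1 and 4 of the 5 uptake genes (not Steap3). Of 19 markers listed, 18 were matched in the table (Ahsp was not), and 17 of these were higher in the libraries labelled cKO at an adjusted p under 0.05, 0 were lower, and the median log2 fold change was 1.02. Rhag was the exception, at 0.17 (limma adjusted p = 0.722). The summed FPKM of the list was 1325 to 2438 in WT and 3999.7 to 6751 in the libraries labelled cKO, and none of the matched markers was near 0. Within WT, the library with the highest mean log2 level of these markers was WT 3, at 6.29 against 5.24 to 5.69 in the other 4, and the lowest was WT 5. These are also the libraries in which most members were highest and lowest. The log2 fold changes of Tfrc, Slc25a37 and Fth1 (1.0, 0.90 and 1.05) were near the marker median, those of Tfr2 and Slc11a2 (0.58 and 0.52) smaller, and those of Steap3, Ftl1 and Slc40a1 (0.02, 0.12 and 0.18) much smaller. How far a larger share of erythroid cells accounts for any of these differences was not tested.

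**Figure D4:**
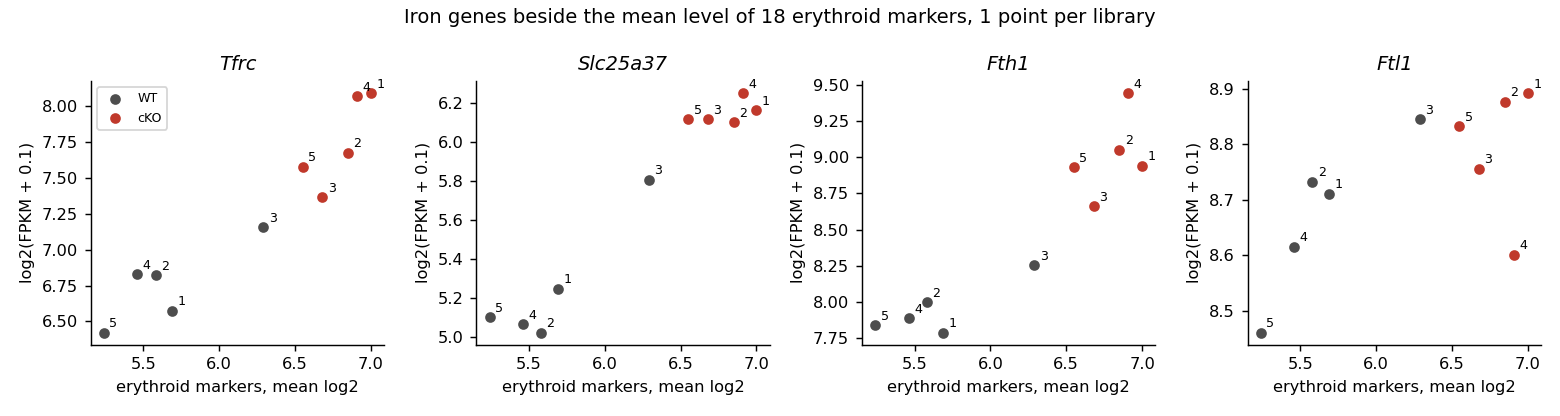
Log2(FPKM + 0.1) of Tfrc, Slc25a37, Fth1 and Ftl1 against the mean log2 level of 18 erythroid markers, with 1 numbered point per library. The cKO-labelled libraries lie to the right at 6.55 to 7.0, WT 3 at 6.29 lies between the groups, and Ftl1 of cKO 4 lies below its group.

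Among the other iron genes, 64 of 71 listed were high enough to be tested, and 25 were higher, 12 lower and 27 not past an adjusted p of 0.05, with a median log2 fold change of 0.19. The share higher was above that of all genes (16.7%) and the share lower below it (28.3%). The lists below were taken from general knowledge of the pathway, but with earlier results of these data known. The shares are therefore a description and not a test. Genes are named by rank of change among those at 1 FPKM or more, and those added to complete a short count were named after their values were seen.

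In the list of other uptake and trafficking genes, 12 of 15 were tested, 3 were higher and 4 lower. Slc39a8, a metal importer of the ZIP family, was higher with a log2 fold change of 0.62 (limma adjusted p = 0.00316), and so were Exoc6, needed for transferrin receptor recycling, at 0.57 and Snx3, a sorting nexin in the same route, at 0.28. Trf, transferrin itself, fell by 2.84 on the log2 scale, from 26.9 ± 4.61 to 4.74 ± 3.14 FPKM (SE 0.516, limma adjusted p = 0.00122). Hfe, a partner of the transferrin receptors in iron sensing, fell by 2.47, from 2.69 ± 0.328 to 0.548 ± 0.455 FPKM (limma adjusted p = 0.00232), a call that did not hold against WT 1 and WT 2 alone (limma adjusted p = 0.0690). Slc11a1, the iron transporter of the macrophage phagosome, fell by 2.16, and Slc22a17, a receptor for the iron carrier lipocalin 2, fell by 1.70 from under 1 FPKM. Macrophage markers were lower beside them: 11 of 14 were past the threshold and lower, 0 were higher, and their summed FPKM was 201 to 259 in WT and 5.02 to 69.3 in the libraries labelled cKO. None of the 14 was at 0 in WT. Mpeg1 made up much of the WT sums, at 108.96 to 160.04 FPKM in WT and 0.39 to 22.18 in the libraries labelled cKO. Csf1r fell from 26.8 ± 4.53 to 2.03 ± 2.51 FPKM, a log2 fold change of -4.63 against a median of -1.86 over the 14. The groups were apart for 7 of the 14, against 21.6% of all genes that lay apart and lower. The count of 11 past the threshold was 4 against WT 1 and WT 2 alone. It was 7 without each of WT 2 to WT 5 or cKO 2, and as high as 14 with another library left out. The part of these cells in the 4 falls was not tested.

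In the list of ferritin turnover, iron chaperones and sensor control, 7 of 8 were tested. Ncoa4, the receptor that delivers ferritin to lysosomes for iron release, fell by 0.68 on the log2 scale, from 7.70 ± 0.439 to 4.80 ± 0.538 FPKM (SE 0.0948, limma adjusted p = 2.93e-04). WT ran from 7.25 to 8.38 FPKM and the libraries labelled cKO from 4.36 to 5.52, without overlap. Herc2, a ubiquitin ligase, fell by 0.29 (limma adjusted p = 0.0120), and Cul1, a scaffold of the ligase that degrades IRP2, was higher at 0.39 (limma adjusted p = 3.69e-04). Fbxl5, the iron-sensing subunit of that ligase, was at 6.52 ± 0.487 and 5.78 ± 0.679 FPKM with overlapping groups, a log2 fold change of -0.18 (limma adjusted p = 0.179) that turned to 0.07 under quantile normalization. Neither of the iron chaperones Pcbp1 (-0.07) and Pcbp2 (0.05) passed the threshold.

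Of the genes that act on hepcidin or oxidise iron for export, 5 of 8 were tested, 2 were higher and 0 lower. Erfe encodes erythroferrone, the hormone by which red cell precursors lower hepcidin in the liver. It was at 0.34, 1.67, 1.54, 0.21 and 0.14 FPKM in WT 1 to 5 and at 15.61, 31, 20.81, 36.81 and 22.4 FPKM in cKO 1 to 5. The lowest library labelled cKO was far above the highest WT library, WT 2. Means of 0.780 ± 0.758 and 25.3 ± 8.48 FPKM gave a log2 fold change of 5.28 (SE 0.561, limma adjusted p = 9.11e-05), and the range over the libraries left out in turn was 4.94 to 5.66. Hjv, hemojuvelin, an activator of hepcidin in liver and muscle, was listed at 0 in 4 WT libraries and at 0.06 in WT 2, and at 0.40 to 0.65 FPKM in the libraries labelled cKO. Hepcidin itself (Hamp) was near 0, with group means of 0.0260 and 0.222 FPKM.

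Of 24 genes of iron-sulfur cluster assembly, all tested, 13 were higher and 1 lower, with a median log2 fold change of 0.31. Bola3, which helps to pass clusters to mitochondrial enzymes, was at 9.38 to 12.63 FPKM in WT and 20.21 to 29.62 FPKM in the libraries labelled cKO, a log2 fold change of 1.18 (SE 0.121, limma adjusted p = 7.88e-05). Hspa9, the mitochondrial chaperone that releases new clusters from their scaffold, differed by 0.88 (138 ± 18.7 against 255 ± 43.8 FPKM, limma adjusted p = 4.91e-04). Glrx5, a glutaredoxin that carries clusters and is needed for heme synthesis in red cells, differed by 0.83 (32.0 ± 8.06 against 55.5 ± 2.75 FPKM, limma adjusted p = 8.19e-04). Iba57, a late-acting assembly factor, fell by 0.62 (limma adjusted p = 0.0140), a call that was lost with quantile normalization, with a covariate for Xist and against WT 1 and WT 2 alone. In the list of heme uptake, export and breakdown, 4 of 10 were higher and 4 lower. Blvrb, a biliverdin reductase abundant in red cells, was higher at 1.03 (37.0 ± 5.40 against 75.6 ± 11.1 FPKM, limma adjusted p = 1.23e-04), as were the heme transporters Slc48a1 (0.50) and Flvcr1 (0.40) and Blvra (0.34). Lrp1, a scavenger receptor for heme bound to hemopexin, fell by 2.76, and Cd163, the macrophage receptor for hemoglobin bound to haptoglobin, fell by 1.14. Slc46a1, which carries heme and folate, fell by 1.32 from under 1 FPKM (0.390 ± 0.149 against 0.104 ± 0.0921 FPKM, limma adjusted p = 0.0136), with overlapping groups. Hmox2 fell by 0.73 (23.4 ± 1.24 against 14.2 ± 1.82 FPKM, limma adjusted p = 1.72e-04), without overlap. For Lrp1 and Cd163 the macrophage values given above stand beside the result.

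Hmox1, the inducible heme oxygenase that frees iron from heme, was at 6.1, 16.81, 11.93, 12.88 and 13.4 FPKM in WT 1 to 5 and at 3.59, 6.21, 18.08, 2.07 and 7.28 FPKM in cKO 1 to 5. The highest library of all was cKO 3, while the other 4 of its group lay below the WT median. The log2 fold change was -1.01 (SE 0.493, limma adjusted p = 0.121), and -1.42 without cKO 3 (limma adjusted p = 0.0143), so 1 library decided the call. It was also the library with the largest summed macrophage marker level of its group.

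**Figure D5:**
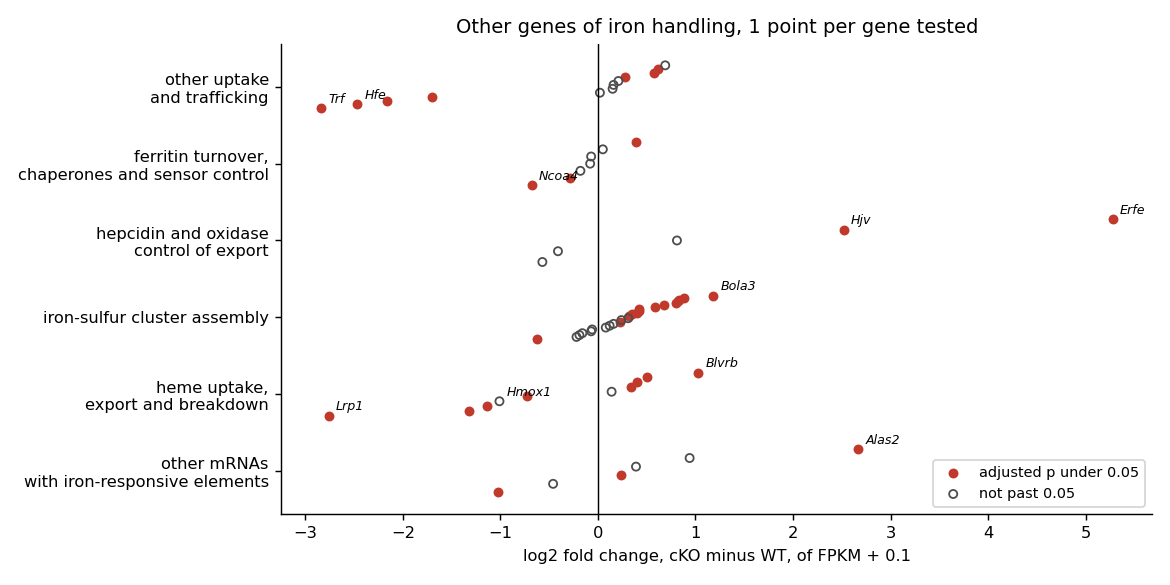
Log2 fold change of FPKM + 0.1, cKO-labelled minus WT, for the 64 other iron genes tested, with 1 point per gene in 6 lists and filled red points at an adjusted p under 0.05. Erfe (5.28), Alas2 (2.67) and Hjv (2.52) lie far to the right and Trf (-2.84) and Lrp1 (-2.76) far to the left.

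Other mRNAs known for iron-responsive elements were measured beside the members that hold them. Of 6 tested, 2 were higher and 1 lower. The site found by the same search in the 5′ UTR of Alas2 holds the same 6-letter loop as that of Fth1.
Alas2, chrX:149330455-149330481, plus strand: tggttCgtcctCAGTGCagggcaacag
Alas2, the first enzyme of heme synthesis in red cells, was at 11.54, 5.27, 18.6, 6.49 and 4.98 FPKM in WT 1 to 5 and at 61.16, 60.25, 51.75, 60.54 and 35.08 FPKM in cKO 1 to 5. The groups did not overlap, and WT 3 was again the highest of WT and WT 5 the lowest. The log2 fold change was 2.67 (SE 0.341, limma adjusted p = 1.85e-04), larger than that of any member. Cdc14a, a phosphatase with a known element in some of its transcripts, fell by 1.02 (2.87 ± 0.417 against 1.37 ± 0.218 FPKM, limma adjusted p = 6.11e-04). The members with a 5′ element and Alas2 thus ran from 0.12 (Ftl1) through 0.18 (Slc40a1) and 1.05 (Fth1) to 2.67 (Alas2) on the log2 scale.

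As a description of which genes ran with the members from library to library, Pearson's r of log2(FPKM + 0.1) was taken over the 10 libraries for 12342 genes, and again after each group's mean was removed. The libraries fall into 2 groups, which by itself raises r, and all points share library depth. For Tfrc, the closest genes were Snrpc, R3hdm1 and Tspan33, with r of 0.990, 0.988 and 0.983 over all libraries and 0.958, 0.960 and 0.920 within groups. For Fth1 they were Dhx15 (0.993), Agpat4 (0.991) and Abcg2 (0.990), at 0.928 to 0.948 within groups. For Slc40a1 they were Gmnn (0.974), Hnrnpul1 (0.967) and Hagh (0.965), at 0.960 to 0.971 within groups. The 10 members themselves were left out of the ranking.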

How the data were processed

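Per the labels and the study's methods, RNA of Lin- cells was sequenced as read pairs, and the authors removed adapters and low-quality reads (cutadapt 1.9.1 is named in the notes) and aligned them to GRCm39 (HISAT2 2.0.1). The submitters' processing notes also name HTSeq 0.6.1, without its role. The authors deposited FPKM per gene and library. The annotation and the gene lengths behind the FPKM are not given in the sources used here. Whether each library came from a separate mouse is not stated in the labels, so p-values measure the spread between these libraries.

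Identifiers were matched to GENCODE vM39 (54749 of 55359). The DESeq2 test of the study needs counts and was not run. limma 3.58.1 in R 4.3.3 (lmFit, eBayes with a trend, two-sided) was fitted to log2(FPKM + 0.1) of 18742 genes that averaged 0.1 FPKM or more over all 10 libraries, with Benjamini-Hochberg adjustment. Fold changes are on that scale and are therefore shrunken for low genes. Calls were made at an adjusted p under 0.05, alone or with a 2-fold change. Ratios were tested in Python 3.11.15 (scipy 1.17.1) by a two-sided exact permutation test, adjusted over 4 ratios. Depth was estimated from genes with 1 transcript, where 95.2% to 95.6% of values of up to 20 fragments were whole within 0.2. It covers counting error only, and fragment numbers of members are approximate. No pair of libraries within a group agreed within sampling noise (chi-square per degree of freedom at least 4.58).

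The members and lists were chosen with earlier results of these data known. Named genes were the 10 members, up to 3 genes a list by largest change past the threshold at a mean of at least 1 FPKM, and Hmox1, Ncoa4, Fbxl5, Alas2 and Dhx9. The marker lists were erythroid, macrophage, neutrophil, stem and progenitor, and mature lineage. Some genes of the lists are not reported here by name. Alternatives were pseudocounts, filters, scalings, no trend, a replicate block, an Xist covariate and each library left out. A comparison of libraries at most 1 FPKM in Xist was chosen after seeing the data. The fit was tested on simulated data.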

Additional observations from a re-analysis of the deposited data

Results flagged for a closer look

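In groups of 5 libraries, a library is listed here where its gap to the nearest other, divided by the range of the group, passed Dixon's 95% critical value. This was so in 5 of the 44 groups examined, where chance gives about 2.20 (1 in 20). Slc25a37 was at 55.8 FPKM in WT 3, where the other 4 WT libraries ran from 32.3 to 37.8. Slc40a1 was at 17.7 FPKM in cKO 1, against 11.4 to 12.6 in the rest of its group, and Aco1 was at 47.9 FPKM in cKO 1, against 23.4 to 28.6. The ratio of Fth1 to Ftl1 was 1.79 in cKO 4, against 0.936 to 1.13 in the rest of its group. The ratio of Tfrc to Fth1 was 0.555 in cKO 1, against 0.385 to 0.407. Of 10 neutrophil markers, 4 (Elane, Mpo, Prtn3 and Ctsg, of primary granules) were lower in the libraries labelled cKO and 0 higher, and the list summed to 2598 FPKM in cKO 1, 147 to 1117 in the other 4 libraries of its group and 2725 to 3698 in WT. Within that sum, Ngp was at 317.58 FPKM in cKO 1 against 19.69 or less in WT, S100a9 at 894.75 against 93.11 or less, Ltf at 29.05 against 3.79 or less and Camp at 51.19 against 5.49 or less. What part those cells had in the values of cKO 1 was not tested.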

How the results depend on the processing

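The 5 members past an adjusted p of 0.05 (Tfrc, Tfr2, Slc11a2, Slc25a37 and Fth1) passed in 20 of 21 alternatives. In the other, against WT 1 and WT 2 alone, which was chosen after seeing the data, Tfr2 (0.42, adjusted p = 0.0522) and Hfe (-2.34, adjusted p = 0.0690) did not. Members past 2-fold numbered 1 (Fth1), but 2 with median-ratio scaling, 0 with quantile normalization, 3 with the Xist covariate and against WT 1 and WT 2 alone, and 0 to 3 with 1 library left out (0 without cKO 4, 3 without WT 3, 2 without WT 2, WT 4, cKO 2, cKO 3 or cKO 5). Over all genes, 862 were called higher and 3153 lower. These were 356 and 1486 with a pseudocount of 1, 462 and 1827 for genes averaging 1 FPKM or more, and 762 to 948 and 2892 to 3268 with 1 library left out. Calls higher numbered 1581 with quantile normalization, where 41.3% of all calls were higher in place of 21.5% and the median of all genes was 0.10 in place of -0.11, and 536 against WT 1 and WT 2 alone. The cause of these shifts was not tested.

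Steap3 changed sign with equal sums per library (-0.02) and without WT 1 (-0.07), WT 4 (-0.03), WT 5 (-0.06), cKO 3 (-0.03) or cKO 5 (-0.04), with a range of -0.07 to 0.15 over the libraries left out, and Fbxl5 with quantile normalization (0.07). By a difference of medians the ratios Fth1/Ftl1, Tfrc/Tfr2 and Aco1/Ireb2 differed by 0.83, 0.38 and 0.35 and did not pass. As said above, that test has little room to pass after adjustment. With 1 library left out they ranged from 0.78 to 1.01, 0.33 to 0.50 and 0.41 to 0.65, mostly above an adjusted p of 0.05, since 9 libraries allow fewer permutations.

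Counts within lists moved as follows. Macrophage markers lower went from 11 to 7 with no filter, quantile normalization or 1 of 5 libraries left out, and to 4 with the Xist covariate or against WT 1 and WT 2 alone. Iron-sulfur genes lower went from 1 to 2 with equal sums or without cKO 3, to 4 without cKO 1, and to 0 with quantile normalization, the Xist covariate or WT 1 and WT 2 alone. Hepcidin and oxidase genes lower went from 0 to 2 with no filter and 1 without cKO 1, and those higher from 2 to 1 for genes averaging 1 FPKM or more. There, other uptake genes lower went from 4 to 2, and with quantile normalization ferritin turnover genes lower went from 2 to 1.

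Whether replicate numbers pair the libraries is not settled by the correlations. Deviations of same-numbered libraries correlated at 0.117, 0.0258, -0.0103, -0.00304 and 0.0929. Those of numbers 1 and 5 were the highest of all pairs, and the highest between unlike numbers was 0.0667 (WT 3 and cKO 4). Not every library correlated best with its own number. With a replicate block, 1 member was past 2-fold and 5 were past the adjusted p, as without it, and 857 genes were called higher and 3107 lower.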

Other observations

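The strict hairpin search of the UTRs named 22 genes, of which 18 were high enough to be tested. Of these, 5 were higher and 6 lower at a limma adjusted p under 0.05 and 7 did not pass, where 16.7% of all genes were higher and 28.3% lower, with a median log2 fold change of 0.08 against -0.11 over all genes. Among those higher, beside Tfrc, Fth1 and Alas2, was Dph5, an enzyme of diphthamide synthesis, with a log2 fold change of 0.61 (3.85 and 5.99 FPKM in WT and in the libraries labelled cKO, adjusted p = 0.00896). Those that fell were Jaml, a leukocyte adhesion molecule, by 2.62 on the log2 scale, Matcap1, a tubulin carboxypeptidase, by 0.86, Aopep by 0.60, Zbtb44 by 0.56, Prkcsh, a subunit of glucosidase II, by 0.36, and Cant1 by 0.25.

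Lcn2, lipocalin 2, a neutrophil protein that binds iron through siderophores, was at 42.56 FPKM in cKO 1, at 1.56 to 13.37 in the other libraries labelled cKO and at 2.22 to 7.07 in WT, a log2 fold change of 0.69 (SE 0.777, limma adjusted p = 0.506).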
